A study of Mus musculus with 4 samples.

Results

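The IKAROS zinc finger family was followed in activated mouse T cells through its 5 genes, Ikzf1 (Ikaros), Ikzf2 (Helios), Ikzf3 (Aiolos), Ikzf4 (Eos) and Ikzf5 (Pegasus). The 5 were chosen by name, with no measured value in the rule, from 50600 genes in the count tables, of which 21751 were nuclear protein-coding genes. The cells were primary T cells of C57BL/6NJ mice, and the file headers name them Th0, activated, at 16 h. Th0 commonly denotes helper T cells stimulated with no lineage-directing cytokine. RNA-seq of these cells gave 4 libraries in a single group, numbered as biological replicates 1 to 4, with age given as unknown, sex as not collected, and a donor identifier common to the 4 biosamples. The labels do not say whether the replicates came from separate animals, so errors measure only the spread between these samples and p-values apply only to them. The only comparison open to this design was between genes of the family within each library, together with the spread of each gene over the replicates.

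IKAROS family proteins are zinc finger transcription factors of lymphocytes. Fingers near the start of the protein bind DNA, and a pair of fingers at its end lets family members form dimers with themselves and with each other. Ikaros and Aiolos recruit the chromatin remodelling and deacetylase complex NuRD and can repress or activate genes, Helios and Eos are best known from regulatory T cells, and Pegasus is the most divergent member and recognises other DNA sequences. Gene-level counts do not separate splice forms, so the forms of Ikzf1 that lack DNA-binding fingers cannot be told apart from the full-length form here.

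The paralogues differ enough in sequence to be counted apart. The stretch of 69 bases that encodes the second finger from the start of each protein is printed because that finger contacts DNA and is among the most conserved parts of the family, and capitals mark each base that differs from Ikzf1 (GENCODE M21 transcripts, coding strand, 5′ to 3′).
Ikzf1: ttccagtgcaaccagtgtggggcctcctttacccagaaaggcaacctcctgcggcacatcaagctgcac
Ikzf2: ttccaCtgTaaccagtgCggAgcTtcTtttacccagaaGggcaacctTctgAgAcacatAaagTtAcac
Ikzf3: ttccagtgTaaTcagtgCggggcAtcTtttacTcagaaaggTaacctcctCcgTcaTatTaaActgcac
Ikzf4: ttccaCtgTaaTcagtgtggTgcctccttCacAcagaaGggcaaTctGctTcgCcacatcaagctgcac
Ikzf5: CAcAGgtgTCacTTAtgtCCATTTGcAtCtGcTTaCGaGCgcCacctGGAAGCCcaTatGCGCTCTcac

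In this stretch Ikzf2, Ikzf3 and Ikzf4 differed from Ikzf1 at 13, 12 and 11 bases, and Ikzf5 at 41. The base changes left nearly the same finger in 3 of the genes: of 23 codons, Ikzf3 changed the residue at 0, and Ikzf2 and Ikzf4 at 1 each. The Ikzf5 stretch, paired with that of Ikzf1 only by its order in the protein, differed at 18. The whole proteins were then aligned, and identity was taken over the positions without a gap. Ikzf1 shared 57.8% of these residues with Ikzf2 (285 of 493), 58.3% with Ikzf3 (284 of 487) and 58% with Ikzf4 (285 of 491). With Ikzf5 it shared 33.9% (125 of 369). A search of the translated sequences for the C2H2 finger pattern found 6 matches in Ikzf1, Ikzf2 and Ikzf4 and 5 in Ikzf3 and Ikzf5. In each protein 2 of them lay past the middle. The pattern limits the spacing of its residues and can miss a finger, so these are not counts of fingers. Before the middle, Ikzf1 had 4 matches and Ikzf5 had 3, and the last of these spanned 22 codons in both. The second match of Ikzf5 may thus correspond to a later finger of Ikzf1, which was not tested. If so, its 41 bases and 18 codons overstate the divergence. The longest run of identical bases between transcripts of any 2 members was 32 bases (Ikzf2 and Ikzf4) and, within coding sequence, 26 bases (Ikzf1 and Ikzf3). No window of 50 bases was common to 2 members. The sources used here do not give the read length.

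Libraries held 46192242 to 63313389 counted read pairs. In TPM, the unit of level used here, a count is divided by the exonic length of its gene and scaled so that each library has the same sum, and a gene is called detected where it reached 1 TPM in all 4 libraries. The samples are labelled T cells, and a linked differentiation protocol is named for CD4+ cells. All 8 CD4 T cell markers were detected, with a summed level of 5356 to 5544 TPM, and 1 of 5 CD8 T cell markers, Cd8b1, at 57.5 ± 3.71 TPM (2 of 5 without replicate 3), while Cd8a lay between 0.225 and 1.06 TPM. Of the markers of other cells, 2 of 5 plasma cell, 2 of 7 dendritic cell and 2 of 7 NK and innate lymphoid genes were detected. For myeloid and erythroid markers the counts were 1 of 7 and 0 of 5, and 45.2% of all nuclear protein-coding genes were detected. The detected genes of these other cells were Sdc1, Xbp1, Bst2, H2-Ab1, Nkg7, Id2 and Cd68. Xbp1, Bst2, Nkg7 and Id2 exceeded 5 TPM in every library. Siglech, S100a8, S100a9, Mpo, Hbb-bs, Hba-a1 and Gzmk had no count. Every pair of libraries differed by more than counting noise, the chi-square of their counts per degree of freedom running from 7.08 to 16.9. Replicates 1 and 2 stood apart from 3 and 4 in Xist, the X-inactivation RNA, at 141, 116, 0.269 and 0.303 TPM in the order of replicates 1 to 4. With a gap of this size they are not repeat libraries of a single RNA sample, although the donor identifier is common to all. Whether the spread within replicates 1 and 2 and within 3 and 4 is technical was not tested. The chi-square per degree of freedom was 7.08 for replicates 1 and 2 and 14.4 for 3 and 4. For 1 and 3 it was 12.6 and for 2 and 3 11.8, both below that of 3 and 4. All values below are in that order, and errors are SD over the 4 libraries (n = 4).

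Ikzf1 dominated the family. Ikzf1 (ENSMUSG00000018654.17, mm10 chromosome 11, 11685003 to 11772926, plus strand) lay at 368, 372, 376 and 408 TPM, a mean of 381 ± 18.0 TPM. Replicate 4 was the highest and the other 3 lay within a few percent of each other. The gene ranked 396 among 21751 nuclear protein-coding genes by mean TPM. Its transcripts made up 86.9%, 87.7%, 88.3% and 87.2% of the summed TPM of the family, which was 424, 424, 426 and 467 TPM.

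Ikzf3, whose protein forms dimers with Ikaros and is prominent in B cells, was the second member. Ikzf3 (ENSMUSG00000018168.8, chromosome 11, 98464902 to 98546031, minus strand) lay at 33.3, 30.3, 28.5 and 36.3 TPM, a mean of 32.1 ± 3.44 TPM, or 7.36 ± 0.554% of the family. It was highest in replicates 4 and 1 and lowest in replicate 3, the widest relative spread in the family. With the deposited length its level is that of a middling gene of these cells, since the median of the 9840 detected nuclear protein-coding genes was 32.7 TPM. Other lengths raised Ikzf3, up to 63.2 TPM with the coding length, and the median was not computed with them.

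Ikzf3 and Ikzf1 are also active in B cells. Of 9 B cell markers 0 were detected (2 without replicate 4), against 45.2% of all nuclear protein-coding genes. Of these markers 6 were below 1 TPM in all 4 libraries. The summed level of the 9 markers was 9.80, 7.18, 7.78 and 2.98 TPM, lowest in replicate 4, where Ikzf1 and Ikzf3 were highest. Jchain and Tnfrsf17 of the plasma cell list had no count. The part of B cells in the Ikzf3 level was not tested beyond these values.

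Ikzf5 and Ikzf4 followed, at levels whose distance depended on the gene length used. Ikzf5 (ENSMUSG00000040167.16, chromosome 7, 131388652 to 131410521, minus strand) lay at 11.5, 10.8, 12.3 and 13.4 TPM, a mean of 12 ± 1.12 TPM. Ikzf4 (ENSMUSG00000002578.16, chromosome 10, 128632415 to 128645993, minus strand) lay at 9.48, 9.90, 8.16 and 8.70 TPM, a mean of 9.06 ± 0.778 TPM. The ranges did not overlap, but the genes were high in different libraries, Ikzf5 in replicates 4 and 3 and Ikzf4 in replicates 2 and 1, the libraries with high Xist. They made up 2.75 ± 0.160% and 2.09 ± 0.234% of the family.

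Ikzf2, the Helios gene that marks many regulatory T cells, was the lowest member, just above 1 TPM with the deposited length. Ikzf2 (ENSMUSG00000025997.13, chromosome 1, 69531214 to 69687245, minus strand) lay at 1.22, 1.11, 1.11 and 1.17 TPM, a mean of 1.15 ± 0.0553 TPM, from 228, 190, 242 and 183 read pairs. It ranked 9838 of the 9840 detected protein-coding genes and made up 0.265 ± 0.0158% of the family. These values rest on a joined exonic length of 11613 bases, and with the mean protein-coding transcript or the coding length Ikzf2 came to 2.73 or 2.90 TPM. In bulk RNA, a small number of cells with much Ikzf2 and many cells with little cannot be told apart. Foxp3, the defining regulator of regulatory T cells, lay at 2.93, 3.49, 1.86 and 3.44 TPM, lowest in replicate 3. Of the exonic bases of Foxp3 6.69% are also exons of Flicr on the same strand. Ikzf4 was lowest in replicate 3 as well, at 8.16 TPM, and Ikzf2 had the same level, 1.11 TPM, in replicates 2 and 3. Of 9 regulatory T cell markers 8 were detected, against 45.2% of all nuclear protein-coding genes. The summed level of the markers was 825 to 854 TPM, most of it from Tnfrsf18, Il2ra and Ctla4, which activated T cells also express. Foxp3, Lrrc32, Nrp1, Gpr83 and Capg were detected as well, and Itgae was not. Of these detected genes, Lrrc32, Nrp1 and Capg were lowest in replicate 3 like Foxp3, and Gpr83 was lowest in replicate 1. Il2ra was lowest in replicate 3 too, and Tnfrsf18 and Ctla4 were lowest in replicate 4. The part of regulatory T cells in the Ikzf2 and Ikzf4 levels was not tested.

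**Figure D1:**
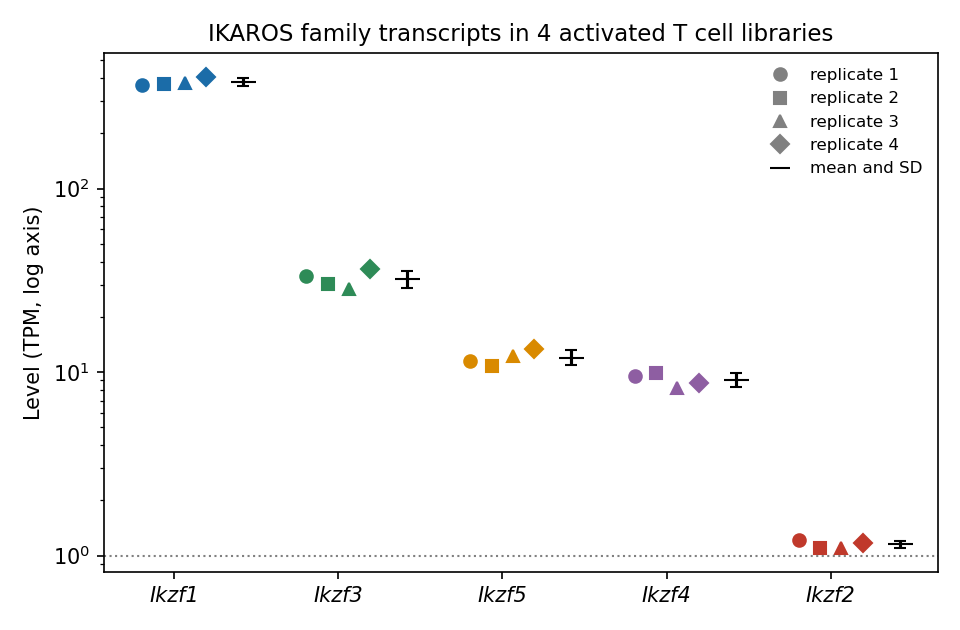
Level of each family gene in TPM (log axis), with 1 marker per library and the mean and SD (n = 4) at the right of each set; the dotted line is at 1 TPM. Ikzf1 sits near 381 TPM, Ikzf3 near 32.1 TPM, Ikzf5 and Ikzf4 near 12 and 9.06 TPM, and Ikzf2 just above the line at 1.15 TPM.

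Within every library the order was Ikzf1, Ikzf3, Ikzf5, Ikzf4, Ikzf2. All 10 pairwise differences on the log2(TPM + 1) scale had the same direction in 4 of 4 libraries, and each had an exact two-sided sign-flip permutation p of 0.13 (0.13 after Benjamini-Hochberg adjustment over the 10 pairs), the smallest that 4 libraries allow, so none can pass 0.05 here. Ikzf1 exceeded Ikzf3 by 11.1, 12.3, 13.2 and 11.2 times in TPM, a log2(TPM + 1) difference of 3.53 ± 0.12. Ikzf3 exceeded Ikzf5 by 2.89, 2.81, 2.31 and 2.71 times, a difference of 1.35 ± 0.14. Each of these steps was many times its SD.

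With the deposited length the step between Ikzf5 and Ikzf4 was the smallest between neighbours. Ikzf5 exceeded Ikzf4 by 1.21, 1.09, 1.51 and 1.54 times in TPM, and Ikzf4 minus Ikzf5 was -0.37 ± 0.22 on the log2(TPM + 1) scale. In replicate 2 the 95% interval of the ratio (exact Clopper-Pearson on the read pairs, counting error only) ran from 0.977 to 1.21, which includes 1, so the step was not detectable at that depth. In the other 3 libraries the lower bounds were 1.09, 1.36 and 1.37. The step was smaller in replicates 1 and 2, with high Xist, than in replicates 3 and 4, and whether the 2 facts are linked was not tested. Ikzf4 in turn exceeded Ikzf2 by 7.78, 8.95, 7.39 and 7.41 times, with Ikzf2 minus Ikzf4 at -2.22 ± 0.11. With the mean transcript length, the smallest step was instead that from Ikzf3 to Ikzf5, at 0.67 ± 0.14 against -0.70 ± 0.11 for Ikzf2 minus Ikzf4 and -2.09 ± 0.22 for Ikzf4 minus Ikzf5. With the coding length it was Ikzf2 minus Ikzf4, at -0.91 ± 0.11. From end to end, Ikzf1 minus Ikzf2 was 7.47 ± 0.07, the ratio of TPM being 332 ± 20.1.

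**Figure D2:**
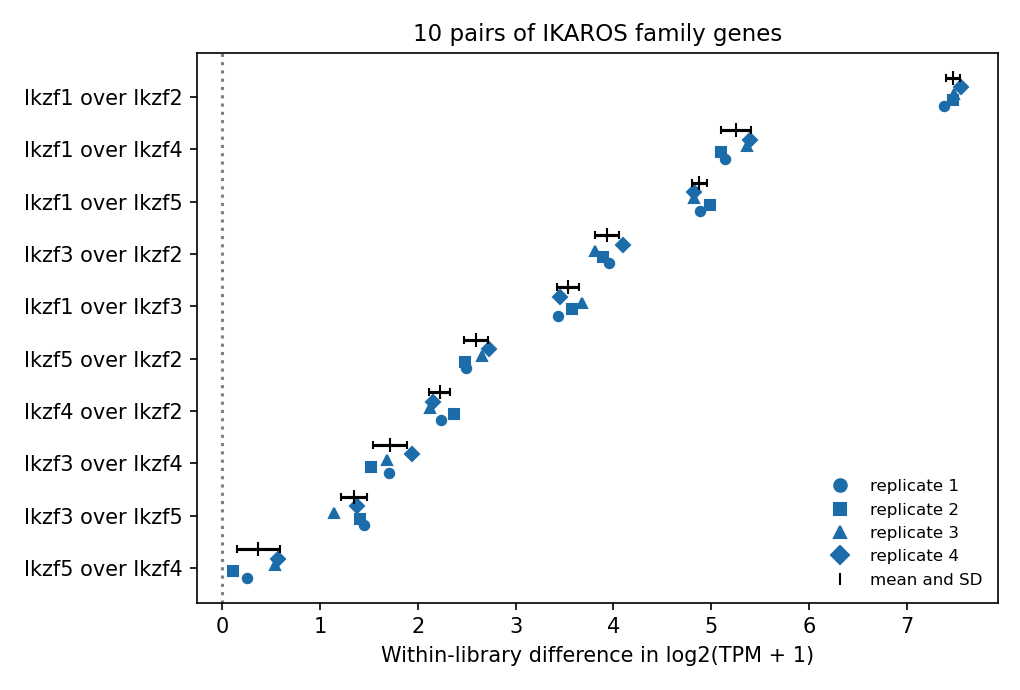
Within-library difference in log2(TPM + 1) for each of the 10 pairs, written as the higher gene over the lower, with 1 marker per library and the mean and SD (n = 4) above each row. Every marker lies to the right of 0, and Ikzf5 over Ikzf4 comes nearest to it.

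The sizes of these steps depend on the length each count is divided by. The deposited length joins all exons of all transcripts of a gene, and for Ikzf3 it was 8754 bases against 3658 for its only protein-coding transcript in GENCODE M21. With the bases of the longest protein-coding transcript that lie inside the deposited exons, Ikzf3 became 54.2 ± 5.88 TPM, Ikzf1 301 ± 14.9 TPM and their ratio 5.55. For Ikzf4 the deposited M13 model was the shorter, at 3580 bases against 5150 in M21. The M21 gene starts at 128630843 where the deposited exons start at 128632415, and read pairs confined to the bases between were not counted for Ikzf4. The length inside the deposited exons gave Ikzf4 6.39 ± 0.543 TPM and a ratio of Ikzf5 to Ikzf4 of 1.71, and the coding length gave 6.31 ± 0.547 TPM and 2.96. The mean protein-coding transcript length gave the widest ratio of Ikzf5 to Ikzf4, at 4.91, and no length gave 2.11. The ratio of Ikzf4 to Ikzf2 was 7.87 with the deposited length, 1.86 with the mean transcript length, 2.18 with the coding length and 2.43 with no length. The order of the 5 genes was the same with the deposited, longest, mean and coding lengths and with no length.

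**Figure D3:**
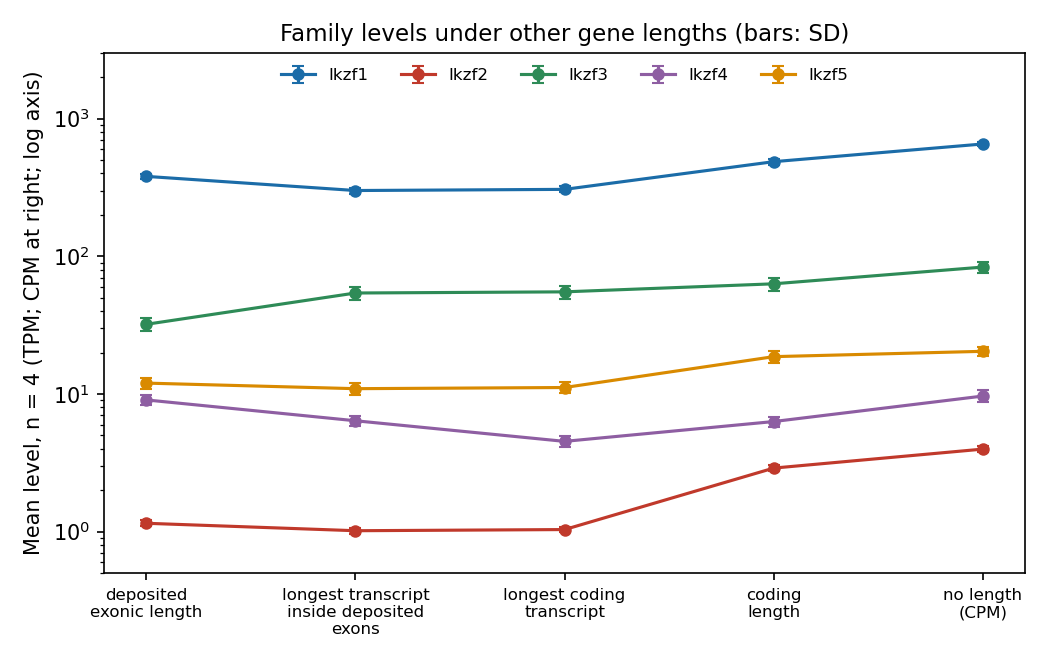
Mean level of each gene (n = 4, bars SD, log axis) with 4 different gene lengths and, at the right, with none (CPM, counts scaled to the library total); lines join the values of 1 gene. The 5 lines do not cross, while the gap between Ikzf1 and Ikzf3 narrows from a ratio of 11.9 at the left to 5.55 with the longest transcript.

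Neighbouring genes bear on the Ikzf5 count. The exons of Ikzf5 lie over those of Pstk, a selenocysteine synthesis kinase gene on the opposite strand, for 4652 of 5721 bases (81.3%). Reads were counted by strand, and Pstk had 821, 723, 840 and 670 read pairs against 1062, 912, 1328 and 1029 for Ikzf5. Of the windows of 50 bases in Ikzf5 transcripts 12.9% also occur in another gene on the same strand, the processed pseudogene Gm10356, which had 7, 0, 6 and 5 read pairs. Reads in such windows may be lost to counting, so the Ikzf5 level is uncertain. No member had an exonic base in common with another gene on the same strand.

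The family was next compared over the replicates. Of all genes tested for spread between replicates beyond that of genes of like abundance, 0.228% passed (28 of 12285, edgeR quasi-likelihood residual spread, Benjamini-Hochberg adjusted p under 0.05), or 14 genes without replicate 3. All 5 family genes were tested and 0 of 5 passed, and at an unadjusted p under 0.05 the count was 1 of 5, Ikzf3, against 5.42% of all genes. DESeq2 marked 0 of 5 as dispersion outliers, and 67 of all genes. With so low a background, 0 of 5 is no result about the family.

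Ikzf3 was the member with the widest spread for its abundance. The SD of its log2 CPM was 0.14, against a median of 0.0724 among the 200 genes nearest in mean abundance, and 96.5% of these had a smaller SD. The edgeR adjusted p was 0.887, and 0.43 at the lowest over the alternatives tried. Ikzf1 had an SD of 0.0451, against a median of 0.0531 (adjusted p = 0.996). Ikzf5 and Ikzf4 had SDs of 0.111 and 0.14 against medians of 0.0948 and 0.145 (edgeR adjusted p = 0.996 for each). Ikzf2 had an SD of 0.067 against a median of 0.214, and its 4 counts varied no more than counting noise, their chi-square being 0.505 per degree of freedom (edgeR adjusted p = 0.998). For the far deeper counts of Ikzf1 and Ikzf3 that ratio was 29.7 and 42, well beyond counting noise, and for Ikzf4 and Ikzf5 it was 5.01 and 5.78.

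**Figure D4:**
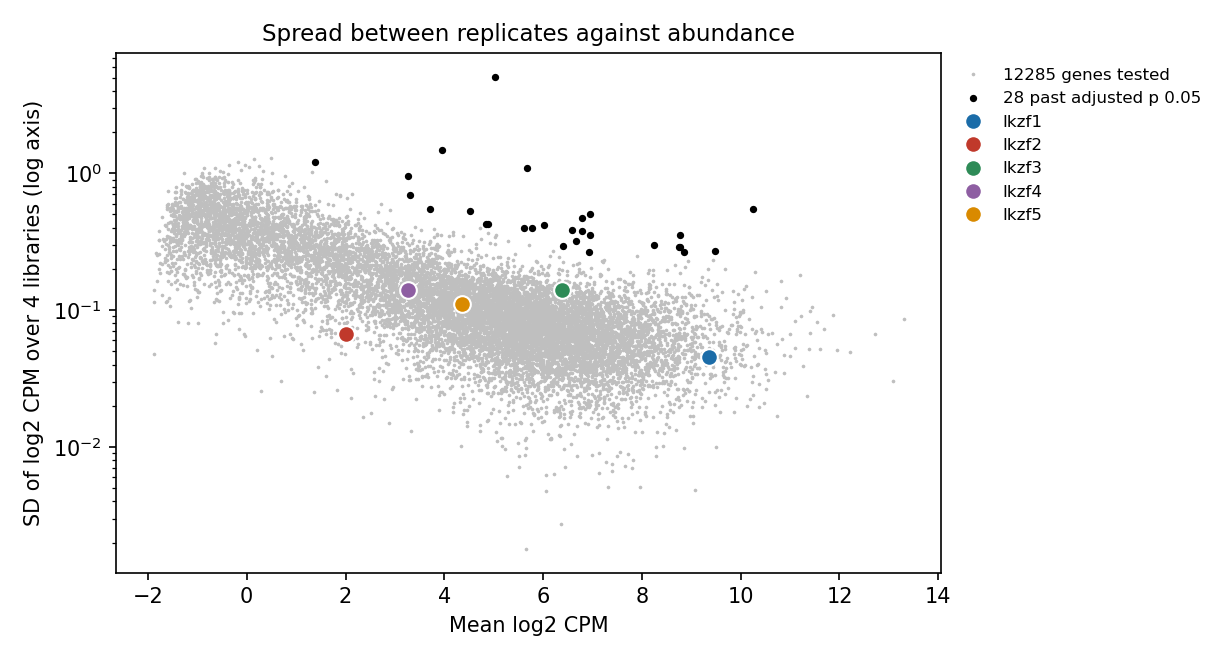
SD of log2 CPM over the 4 libraries (log axis) against mean log2 CPM for 12285 genes, with the 28 genes past the threshold in black and the family in colour. Ikzf3, at an SD of 0.14, lies at the upper edge of the cloud below the black points, and Ikzf2, at 0.067, at its lower edge.

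Among the listed lymphoid transcription factors Ikzf1 was surpassed by a single gene with the deposited length. When the 22 listed factors and the family were ranked together, Ikzf1 was at rank 2 of 27 in every library, below Tcf7 (809 ± 31.5 TPM), a factor of naive T cells, and above Ets1 (224 ± 11 TPM), Tcf3 (205 ± 11.6 TPM), which encodes E2A, and Bach2 (179 ± 14.5 TPM). Before division by length, Ikzf1 had more read pairs than Tcf7 in every library. The counts were 34281, 31761, 40987 and 31616 for Ikzf1 and 33048, 31384, 39199 and 30064 for Tcf7. The ranking was not repeated with another length. Ikzf3 was at rank 15 by mean, next to Tcf12 (33.8 ± 0.769 TPM), and at rank 14 in replicates 1 and 4. Ikzf5 and Ikzf4 were at ranks 21 and 22, and Ikzf2 at rank 26, with Foxp3 (2.93 ± 0.756 TPM) just above it. Of the 22 factors 21 were detected, and their median was 36.6 TPM. Over all nuclear protein-coding genes 45.2% were detected, and the median was 0.338 TPM.

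Of 18 NuRD and corepressor genes, partners of Ikaros, 17 were detected, against 45.2% of all nuclear protein-coding genes. The list's median of 149 TPM was below Ikzf1, and the 4 highest genes lay near or above it. Rbbp7, a histone-binding subunit, lay at 499 ± 17.0 TPM, and Chd4, the ATPase of NuRD, at 414, 415, 422 and 491 TPM. Mbd3, which holds NuRD together, lay at 424 ± 15.1 TPM and the subunit gene Mta2 at 341 ± 9.27 TPM. Chd4 and Mbd3 were highest in replicate 4 like Ikzf1, but Mta2 was highest in replicate 3 and Rbbp7 lowest in replicate 4. The factors Tcf7, Ets1, Tcf3 and Bach2 were also highest in replicate 4. The listed gene not detected was Ctbp2, a corepressor gene, at 0.13, 0.185, 0.179 and 0.0359 TPM. Its paralogue Ctbp1, whose protein works with Eos, lay at 231 ± 6.09 TPM. Of the exonic bases of Ctbp2 5.05% are also exons of Fgfr2 on the same strand.

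Through the cereblon ubiquitin ligase, thalidomide analogues degrade human IKZF1 and IKZF3. Protein degradation in these mouse cells was not measured. All 7 genes of the list drawn up for the ligase were detected, against 45.2% of all nuclear protein-coding genes. The list's median was 71.9 TPM. It also holds Cops5 and Glul, which are not subunits of the ligase, so these values are not those of the ligase alone. The substrate receptor gene Crbn was the lowest of the list, at 16.4, 15.7, 15.0 and 17.2 TPM, lowest in replicate 3 and highest in replicate 4 like Ikzf3. The adaptor gene Ddb1 lay at 690 ± 20.4 TPM and the ring protein gene Rbx1 at 116 ± 4.76 TPM. Cops5, of the COP9 signalosome, lay at 94.2 ± 1.4 TPM, and Cul4b, a scaffold, at 71.9 ± 3.71 TPM. Ddb1 and Cul4b were also highest in replicate 4, but lowest in replicates 1 and 2, respectively. Rbx1 was lowest in replicate 4, and Cops5 was highest in replicate 1.

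Genes described in the literature as regulated by IKAROS family proteins spanned the widest range. Of 20 such genes 7 were detected and 9 were below 1 TPM in all 4 libraries, and the list's median was 0.682 TPM. The share detected over all nuclear protein-coding genes was 45.2%, and their median was 0.338 TPM. Myc lay at 939.7 ± 51.1 TPM, Cd4 at 749 ± 30.2 TPM, the cyclin gene Ccnd2 at 533 ± 28.5 TPM and Il2, the T cell growth factor gene, at 438 ± 64.6 TPM. At the low end, Dntt, the terminal transferase of antigen receptor rearrangement, lay at 0.321, 0.191, 0.0997 and 0 TPM, and the recombinase gene Rag1 at 0, 0, 0.0482 and 0.0676 TPM. Rag2 and Igll1, the latter a surrogate light chain gene of early B cells, had no count in any library, where 3 counts, the limit that a count of 0 allows, correspond to 0.0474 to 0.0649 CPM. Ptcra, of the pre-T cell receptor, averaged 0.0712 ± 0.110 TPM, the Notch pathway genes Hes1 and Notch3 0.349 ± 0.204 and 0.0612 ± 0.0342 TPM, and the cytokine genes Ifng and Il10 0.13 ± 0.188 and 0.0101 ± 0.0202 TPM. Of the exonic bases of Ifng 25.9% are also exons of Gm49751 on the same strand, and reads there may be lost to counting. Without a sample that lacks a family member, no level here can be ascribed to it.

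**Figure D5:**
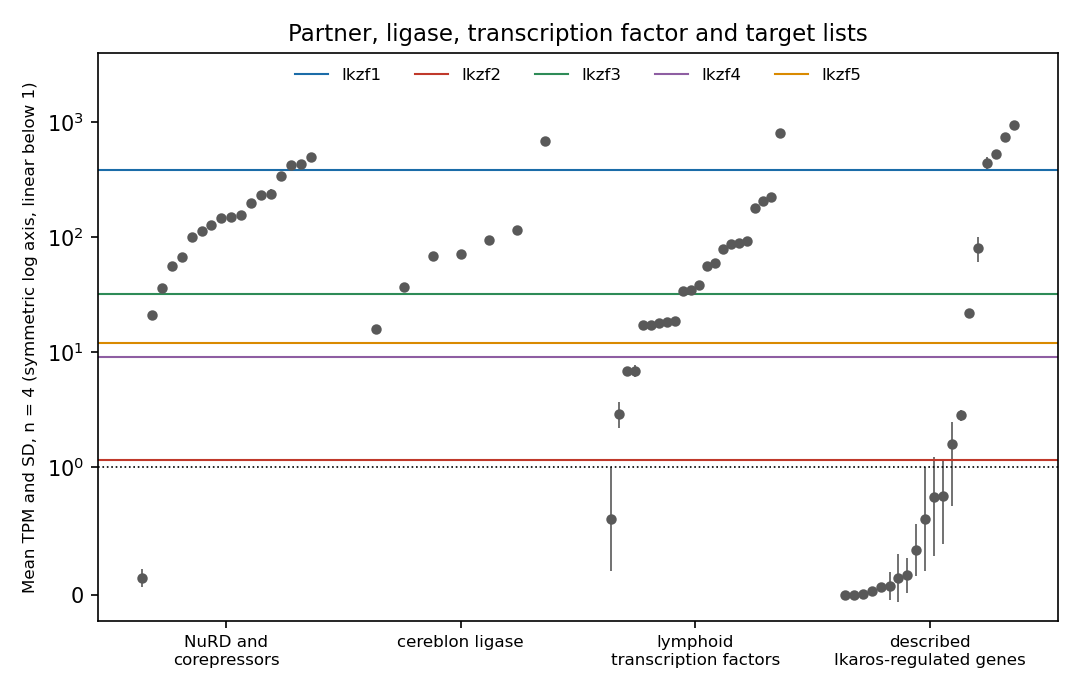
Mean TPM and SD (n = 4) of each gene of 4 lists, sorted within a list, on a symmetric log axis that is linear below 1; coloured lines mark the family means and the dotted line 1 TPM. Most NuRD and corepressor genes lie between the Ikzf3 line at 32.1 TPM and the Ikzf1 line at 381 TPM, whereas the Ikaros-regulated genes run from 0 (Rag2, Igll1) to 939.7 TPM (Myc).

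The genes most like each member over the 4 libraries, by root mean square distance of log2(TPM + 1), were Iars, Wdr43 and Cnn2 for Ikzf1 (0.0313 to 0.05), and Plcxd2, Klhl25 and Micall1 for Ikzf3 (0.0294 to 0.0405). Plcxd2, chosen for this likeness, lay at 32.1, 30.4, 28.6 and 35.5 TPM, in the same order of libraries as Ikzf3. For Ikzf4 they were Glrx2, Nemp2 and Lbhd1 (0.0185 to 0.0691), for Ikzf5 Phka2, Zfp748 and Mthfsd (0.0163 to 0.0418), and for Ikzf2 Galnt2, 4931406C07Rik and Arhgef10 (0.0502 to 0.0519). With 4 libraries of a single group, such likeness rests mostly on the level.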

How the data were processed

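RNA-seq read pairs were counted per gene by the authors and deposited as raw counts. Per the file headers, featureCounts 1.4.6 (p4) counted pairs with both mates aligned over exons grouped by gene, in the reverse-stranded setting, with GENCODE M13, on alignments whose names point to STAR. Per the labels, coordinates are in mm10. The assay is labelled total RNA-seq while a linked protocol is named for polyA+ libraries, and this was not settled. Symbols came from GENCODE M21 (50376 of 50600 identifiers matched).

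TPM was computed from counts and the deposited exonic length. Differences between family genes used log2(TPM + 1) and exact sign-flip tests over 4 libraries. Detection means 1 TPM or more in every library. Intervals are at 95%. Spread was tested with edgeR 4.0.16 (R 4.3.3): TMM, filterByExpr, an intercept-only robust quasi-likelihood fit, each residual dispersion against the trended prior (13.9 prior degrees of freedom), Benjamini-Hochberg adjustment at 0.05, checked on simulated data. DESeq2 1.42.0 gave an alternative. Coding sequences were translated and aligned with Biopython 1.88 (BLOSUM62, gap open 10, extend 0.5). Other steps ran in Python 3.11.15 (scipy 1.17.1, numpy 2.4.6, pandas 2.3.3), and matplotlib 3.10.9 drew the plots.

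Genes named outside the family were the 4 highest of each list, those below 1 TPM in all libraries, Crbn, Foxp3, Chd4 and Dntt, and the 3 genes nearest each member. Pstk, Gm10356, Fgfr2, Gm49751, Flicr, Glul, Xist, Tcf12 and single marker genes were added for context after their values were seen. The members and lists were chosen with earlier results of these data known. A length inside the deposited exons was added as an alternative after the data were seen. The level of 1 marker gene is not reported here.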

Additional observations from a re-analysis of the deposited data

How the results depend on the processing

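All 10 differences between family genes kept their direction under all 12 alternatives tried for each (120 of 120 values, 0 reversed). Other pseudocounts, another denominator and leaving out a replicate could not reverse a direction that every library had. Only the other gene lengths and the use of no length could have done so. Levels moved with the gene length. The longest protein-coding transcript gave Ikzf1 307, Ikzf2 1.04, Ikzf3 55.2 and Ikzf4 4.53 TPM, and its bases inside the deposited exons, an alternative chosen after seeing the data, gave 300.7, 1.02, 54.2 and 6.39 TPM. The mean protein-coding transcript gave Ikzf1 534, Ikzf2 2.73, Ikzf3 40.3, Ikzf4 5.09 and Ikzf5 25.0 TPM. Coding length gave Ikzf1 487, Ikzf2 2.90, Ikzf3 63.2, Ikzf4 6.31 and Ikzf5 18.7 TPM. No length gave Ikzf1 655, Ikzf2 3.98, Ikzf3 83.6 and Ikzf5 20.4 CPM. Nuclear protein-coding genes as the denominator gave Ikzf1 404.7 and Ikzf2 1.22 TPM. The causes of these shifts are the lengths and the denominator themselves.

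Detected marker genes changed in number with the floor. At a floor of 0.5 TPM, 2 B cell and 1 erythroid marker were detected. At 5 TPM, 5 regulatory T cell, 1 plasma cell, 1 dendritic cell and 0 myeloid markers were. With a mean of 1 TPM in place of every library, 2 CD8 T cell, 3 B cell and 1 erythroid marker were. Leaving out a replicate gave 1 to 2 CD8 T cell and 0 to 2 B cell markers.

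The 28 genes with wide spread became 142 with no filter on low counts, 67 with DESeq2's dispersion outliers and 14 to 27 without 1 replicate, the lowest without replicate 3; the cause was not tested. No family gene was among them in any of these fits. Ikzf2, with 183 to 242 read pairs, is the member whose level depth limits most. No paired analysis was possible because the labels give a single group.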
